A study of Mus musculus with 48 samples.

Results

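The 12 libraries described here come from micropunches of the arcuate nucleus of the mouse hypothalamus and compare ZT4 with ZT16, where ZT is zeitgeber time in hours after lights on. They are all the arcuate libraries at these 2 times, 12 of the 48 libraries of a series that sampled 2 tissues every 6 h over a day, and were chosen by their labelled tissue and time alone. The animals were male mice on the C57Bl/6J strain, 10 to 12 weeks old, kept on chow and a 12 h light and 12 h dark cycle at 27 °C. All of them, controls included, were Reverb a/b fl/fl: both copies of Nr1d1 and of Nr1d2, which encode the clock repressors REV-ERBα and REV-ERBβ, carried loxP sites, between which Cre recombinase removes the DNA. At 6 to 10 weeks of age they had a tail vein injection of AAV8-TBG-EGFP (Control) or AAV8-TBG-Cre (HepDKO) and were studied 2 to 4 weeks later. TBG is a hepatocyte promoter, so the deletion was aimed at the liver and not at the brain. There were 3 libraries for Control at ZT4, 3 for HepDKO at ZT4, 3 for Control at ZT16 and 3 for HepDKO at ZT16, each a pool of 3 mice per the protocol or 3 to 4 per the series design. A library is therefore already an average over mice, and the spread given below is the spread between pools.

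Mice are nocturnal. ZT4 falls in the light phase, when they mostly rest and eat little, and ZT16 falls in the early part of the dark phase, when they are awake and do much of their feeding. The arcuate nucleus holds neurons that promote feeding (marked by Agrp and Npy) and neurons that restrain it (marked by Pomc and Cartpt), together with astrocytes, oligodendrocytes and the tanycytes of the ventricle wall. The molecular clock of each cell turns on a loop in which CLOCK and BMAL1 (the product of Arntl) switch on Per, Cry and Nr1d genes through DNA motifs called E-boxes. The PER, CRY and REV-ERB proteins then repress the activators or their genes. Other daily changes in brain RNA follow signals from outside the cell, among them the glucocorticoid hormone that peaks near dark onset in nocturnal rodents, body temperature and activity.

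The libraries held 15505869 to 20399718 counts, with a median of 17770828. HepDKO ZT4 replicate 3 stood apart from the other 11: on the first principal component of log CPM (25.2% of the variance) it scored -48.8, and the others lay between -4.90 and 15.9. In that library the ribosomal precursor symbol Rn45s took 2.08% of the counts against 4.12% to 8.13% elsewhere, and the long noncoding RNA Meg3 took 0.948% against 0.406% to 0.533%. The summed level of 6 astrocyte markers was 1967 CPM there and 2769 to 3042 in the other 11. Counts of gene list members are given below for all 12 libraries and for the fit of the 11 others. Levels are given as CPM, counts scaled to library size with TMM factors, which compare a gene between libraries but not 1 gene with another. A level written with a range in parentheses is the median of the 6 libraries of a time, both genotypes together, followed by the lowest and the highest of them. Where 3 values stand together they are the libraries of 1 group.

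In bulk tissue, a lower level of a transcript can come from fewer cells of a type or from less RNA per cell, and these data cannot tell the 2 apart. The arcuate label was checked against marker genes. All 10 arcuate neuron markers were detected, with a summed level of 390 to 569 CPM at ZT4 and 450 to 564 CPM at ZT16. Markers of the ventromedial nucleus next to it were also present, at 151 to 225 CPM at ZT4 and 141 to 201 CPM at ZT16. Markers of other hypothalamic nuclei, 7 in all and mostly neuropeptide genes such as Pmch, Hcrt, Avp and Oxt, summed to 211 to 617 CPM at ZT4 and 380 to 1047 CPM at ZT16, ranges that enclose those of the arcuate markers. The 1047 CPM were in Control ZT16 replicate 1, and the next highest ZT16 library had 634. Of 5 blood genes, the 4 globin genes were at 0 in all 12 libraries. The fifth, Alas2, made up the summed level of 1.86 to 2.42 CPM at ZT4 and 1.72 to 2.75 CPM at ZT16. How the counting treated globin reads is not known, so these zeros do not show that blood was absent.

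With genotype as a covariate, 409 of the 15847 genes tested differed between ZT16 and ZT4 at an adjusted p under 0.05, which is 2.58% of them. The test was the quasi-likelihood test of edgeR, adjusted by Benjamini and Hochberg's method over all genes tested. Of these, 227 (1.43%) were higher at ZT16 and 182 (1.15%) were lower. Most differences were modest: the median log2 difference was 0.32 among the higher genes (1.25-fold) and -0.46 among the lower ones (1.37-fold). Differences above 2-fold were found in 5 of the higher and 16 of the lower genes, and above 1.5-fold in 22 and 48. All 6 ZT16 libraries lay above all 6 ZT4 libraries for 168 of the 227 higher genes and below them for 108 of the 182 lower ones. Over all genes tested such separation was seen in 332 (2.10%) and 195 (1.23%). Without HepDKO ZT4 replicate 3 the count of changed genes was 1077 (6.75%), of which 619 (3.88%) were higher and 458 (2.87%) lower, and 392 of the 409 were among them. Leaving out Control ZT16 replicate 1 or HepDKO ZT4 replicate 2 gave 485 and 421, and leaving out any 1 of the 9 others gave 163 (HepDKO ZT16 replicate 2) to 255.

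**Figure D1:**
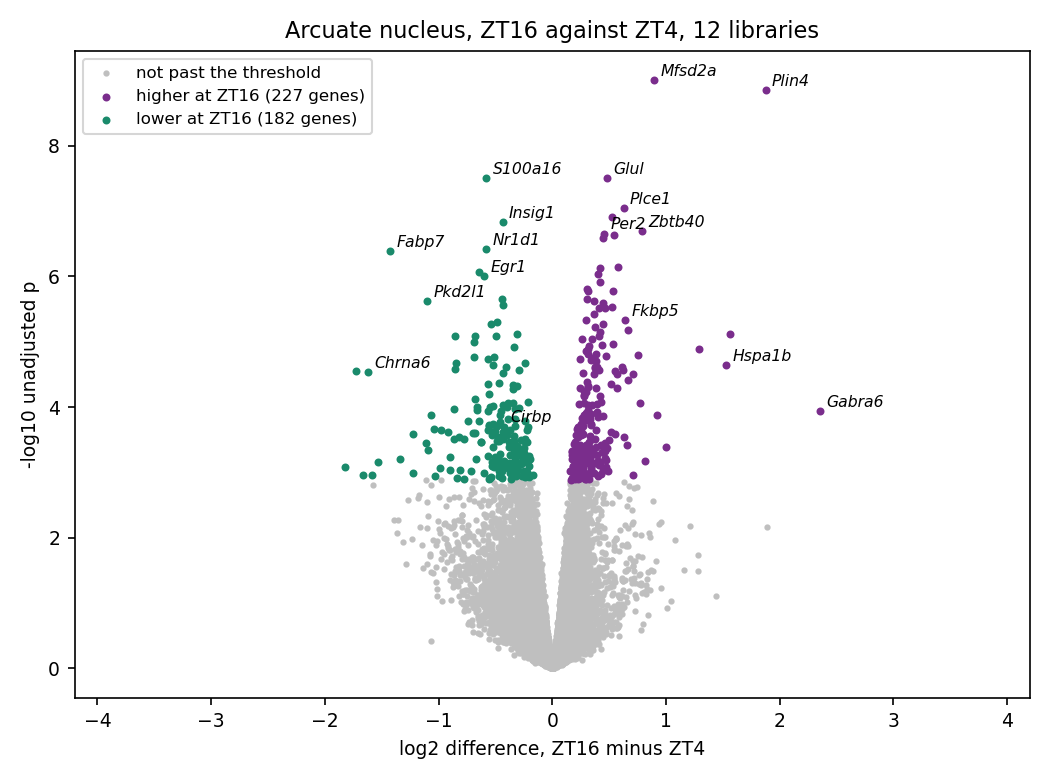
Each point is 1 of 15847 genes, with the log2 difference between ZT16 and ZT4 on the horizontal axis and -log10 of the unadjusted edgeR p on the vertical axis. Purple points are the 227 genes higher at ZT16 and green points the 182 lower; Plin4 and Mfsd2a lead the higher side, and S100a16, Insig1 and Nr1d1 the lower side.

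The 12 genes with the lowest p on the higher side were Mfsd2a, Plin4, Glul, Plce1, Fam107a, Zbtb40, Per2, Dnajb1, Zfp36l1, Chordc1, Hspa5 and Gpt2. Mfsd2a, whose product carries lysophosphatidylcholine with omega-3 fatty acids across the blood-brain barrier (chr4:122946850-122961188, minus strand, GRCm38), had 28.1, 24.3 and 26.6 CPM in the Control libraries and 24, 28.1 and 24.3 in the HepDKO libraries at ZT4. At ZT16 it had 48.8, 49.8 and 56.5 CPM in Control pools and 41.7, 42.1 and 50.7 in HepDKO. Every ZT16 library was above every ZT4 library, and the fitted rise was 1.86-fold (log2 difference 0.89, SE 0.071, edgeR adjusted p 1.13e-05). Plin4, a coat protein of lipid droplets (chr17:56100591-56109803, minus strand), had 5.35, 4.48 and 5.34 CPM in Control pools and 5.54, 5.44 and 7.8 in HepDKO at ZT4 and reached 22.9, 23.5 and 28.2 (Control) and 16.3, 19.2 and 16.7 (HepDKO) CPM at ZT16. The groups did not overlap, and the fitted rise of 3.68-fold (log2 difference 1.88, SE 0.15, edgeR adjusted p 1.13e-05) was the second largest among called genes, after Gabra6.

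Glul encodes glutamine synthetase, the astrocyte enzyme that turns glutamate into glutamine (chr1:153899944-153909723, plus strand). Its level was 936 (887 to 1047) CPM over the 6 ZT4 libraries and 1314 (1275 to 1435) over the 6 ZT16 libraries, with no overlap (log2 difference 0.48, SE 0.048, edgeR adjusted p 0.000124). Fam107a, an actin-binding protein induced by stress hormones, went from 138 (126 to 154) to 203 (186 to 222) CPM (log2 difference 0.53, SE 0.059, edgeR adjusted p 0.000328). Plce1, a phospholipase C that makes second messengers, went from 44 (36 to 49.6) to 68.3 (59.7 to 71.8) CPM (log2 difference 0.63, SE 0.068, edgeR adjusted p 0.000287). In each of these, the lowest ZT16 library was above the highest ZT4 library. Also separated were Zbtb40, a zinc finger protein gene at 13.4 (10.1 to 14.9) and 22 (20.9 to 25.3) CPM, and Zfp36l1, which speeds decay of messages with AU-rich elements, at 33.2 (31 to 34.4) and 44.4 (41.6 to 50.2) CPM. The mitochondrial alanine aminotransferase gene Gpt2 had 55.7 (50.6 to 59.6) CPM at ZT4 and 73 (66.9 to 78.7) at ZT16. The rises of Zbtb40, Zfp36l1 and Gpt2 were 1.73-fold, 1.36-fold and 1.32-fold.

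Among called genes with a mean of at least 1 CPM, the 5 largest rises were those of Plin4, Hspa1b, Fmo2, Kirrel2 and F13a1. The drug-metabolising enzyme gene Fmo2 had 1.77 (1.06 to 3.23) CPM at ZT4 and 6.09 (3.62 to 8.01) at ZT16 (log2 difference 1.56, SE 0.24, edgeR adjusted p 0.00286). For the cell adhesion gene Kirrel2 the levels were 1.56 (0.984 to 2.51) and 4.07 (2.7 to 4.79) CPM (log2 difference 1.29, SE 0.21, edgeR adjusted p 0.00375), and for the coagulation factor gene F13a1 1.62 (0.681 to 2.11) and 3.1 (2.46 to 3.51) CPM (log2 difference 1.00, SE 0.22, edgeR adjusted p 0.0278). These 3 genes are expressed at a few CPM, and their ZT4 and ZT16 libraries did not overlap. The call of F13a1 was lost in 6 of the 12 fits that left out 1 library, with an adjusted p of up to 0.0822.

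**Figure D2:**
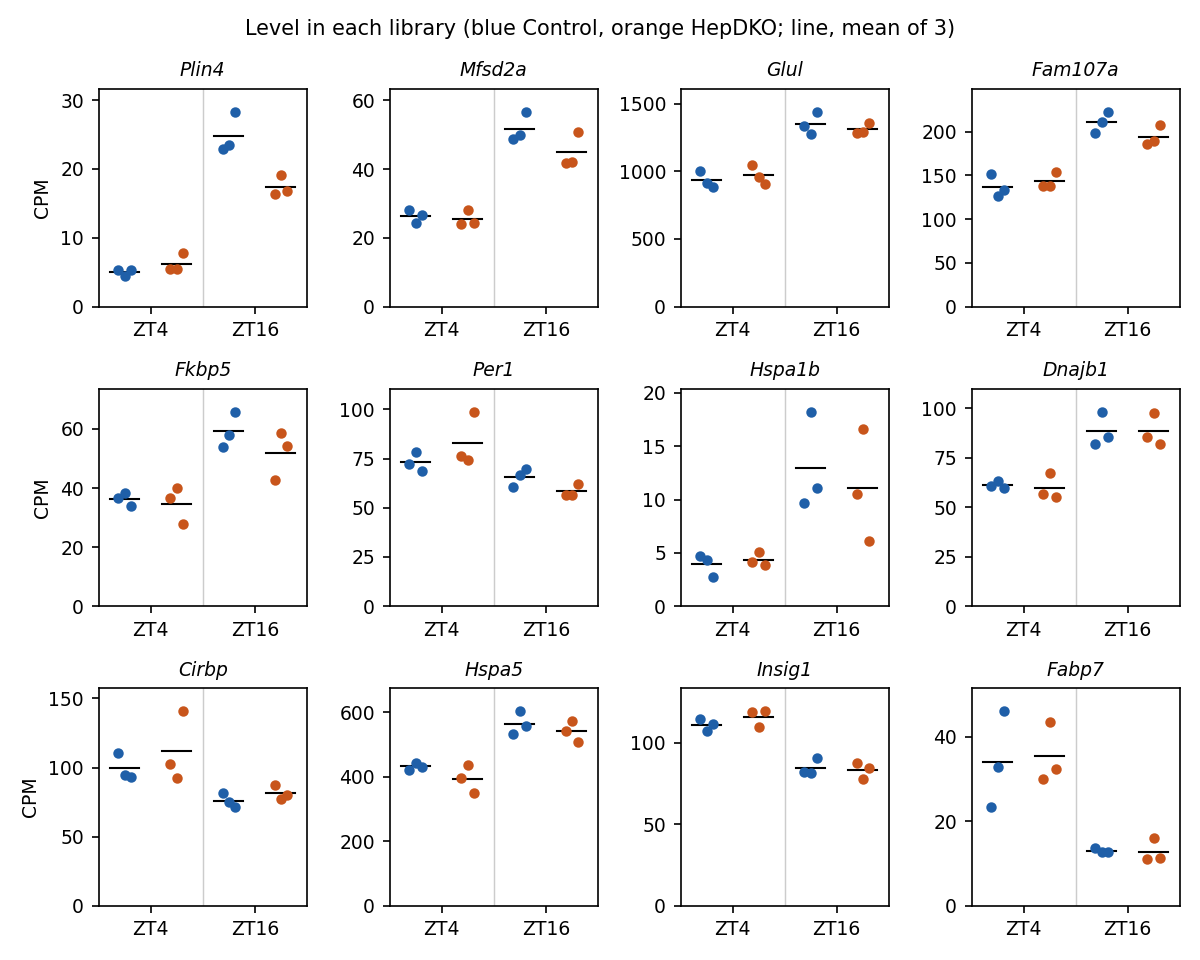
CPM of 12 genes in each of the 12 libraries, with Control in blue, HepDKO in orange and a line at the mean of the 3 libraries of a group. The ZT16 points of Plin4, Mfsd2a, Glul, Fam107a, Fkbp5, Hspa1b, Dnajb1 and Hspa5 lie above all ZT4 points, those of Cirbp, Insig1 and Fabp7 lie below them, and those of Per1 overlap.

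Fabp7, which encodes the fatty acid-binding protein of astrocytes and radial glia (chr10:57784881-57788450, plus strand), had the largest fall among the 12 lower genes with the lowest p. Its level was 23.2, 32.7 and 46 CPM in Control pools and 30.1, 43.5 and 32.4 in HepDKO at ZT4, and 13.8, 12.7 and 12.6 (Control) and 11.1, 16 and 11.2 (HepDKO) CPM at ZT16. No ZT16 library reached the lowest ZT4 library, and the fitted fall was 2.69-fold (log2 difference -1.43, SE 0.16, edgeR adjusted p 0.0004996). S100a16, a calcium-binding EF-hand protein gene (chr3:90537254-90543151, plus strand), went from 49.8 (47.3 to 54.2) to 34 (28 to 38) CPM (log2 difference -0.58, SE 0.058, edgeR adjusted p 0.000124). Mmp14, a membrane-bound metalloprotease gene, went from 45.2 (36.4 to 47.6) to 27.9 (24.5 to 30.6) CPM (log2 difference -0.64, SE 0.083, edgeR adjusted p 0.000843). Both were separated in the same way. Pkd2l1, a channel gene known from neurons that contact the cerebrospinal fluid, had 3.62 (3.02 to 3.99) CPM at ZT4 and 1.65 (1.17 to 2.22) at ZT16, a 2.15-fold fall.

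Also among the 12 genes with the lowest p on the lower side were Id2, Itga7, Lgi4, Tmem44 and 2310022B05Rik, each with separated groups. Id2, an inhibitor of helix-loop-helix factors, had a median of 56.7 CPM at ZT4 and 42.2 at ZT16. Medians went from 19.9 to 14.3 CPM for the laminin-binding integrin gene Itga7 and from 30.2 to 22.7 for Lgi4, a secreted protein gene of glia. They went from 26 to 17.1 CPM for Tmem44 and from 230.4 to 181 for 2310022B05Rik. Exons of Itga7 and Lgi4 overlap exons of Mettl7b and Fxyd3 on the opposite strand in the GENCODE annotation, and because it is not known whether the counting used strand, reads of the partners cannot be told apart. The same holds for other genes named here and their partners: Plin4 with Hdgfl2, Glul with Teddm2, Cnp with Dnajc7, Dnaja1 with Smu1, Hspd1 with Hspe1, Manf with Dcaf1, Pdia6 with Atp6v1c2, Pmch with Parpbp, Sult1a1 with Sgf29 and B230206H07Rik with Eps8l2.

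The 5 largest falls among called genes with a mean of at least 1 CPM were those of Chrna6, Fabp7, Mypn, B230206H07Rik and Opalin. Chrna6, a nicotinic receptor subunit gene, had 2.4, 2.62 and 4.02 CPM in Control pools and 10.2, 4.58 and 5.87 in HepDKO at ZT4 against 0.593, 1.17 and 1.19 (Control) and 3.4, 1.15 and 2.16 (HepDKO) at ZT16 (log2 difference -1.62, SE 0.27, edgeR adjusted p 0.00552). Its ZT4 and ZT16 ranges overlapped, and it did not pass with all 24 arcuate libraries in the fit or without a genotype term. Opalin, a membrane protein gene of oligodendrocytes, had 18.6 (13.3 to 32.5) CPM at ZT4 and 9.13 (4.67 to 13.1) at ZT16 (log2 difference -1.11, SE 0.23, edgeR adjusted p 0.026), and its call was kept in 7 of 12 fits with 1 library left out and lost with no filter on low counts. HepDKO ZT4 replicate 3 held its highest value, and without that library the difference was -0.94 (edgeR adjusted p 0.046). The noncoding RNA B230206H07Rik had medians of 1.54 and 0.561 CPM, and Mypn, a sarcomere protein gene, 2.21 and 0.751 CPM. Their calls were kept in 7 and 5 of 12 such fits, with adjusted p of up to 0.0686 and 0.104. Mypn did not pass with all 24 libraries, without a genotype term or by limma-voom.

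Of 18 core clock genes tested, 2 rose and 2 fell from ZT4 to ZT16, against 1.43% and 1.15% of all genes tested. In the 11-library fit 3 rose and 3 fell, against 3.88% and 2.87%. Per2, a repressor of the loop (chr1:91415982-91459324, minus strand), had 33.7, 32.1 and 33.1 CPM in Control pools and 30.4, 32.2 and 33.6 in HepDKO at ZT4, and 40.7, 44 and 47.2 (Control) and 42.4, 46.6 and 46.8 (HepDKO) CPM at ZT16. All ZT16 libraries were higher, by 1.37-fold (log2 difference 0.46, SE 0.053, edgeR adjusted p 0.000373). Nr1d1, the gene of REV-ERBα (chr11:98767932-98775333, minus strand), had 55.2, 61 and 49.7 CPM in Control pools and 67.5, 56.8 and 59.97 in HepDKO at ZT4, and 44, 37.1 and 33.7 (Control) and 41.1, 38.4 and 39.5 (HepDKO) at ZT16. All ZT16 libraries were lower, by 1.5-fold (log2 difference -0.58, SE 0.07, edgeR adjusted p 0.000498), and the call was kept in all 12 fits that left out 1 library. Exons of Nr1d1 overlap exons of Thra on the opposite strand.

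Cry1, a second repressor, rose from 21.5 (18.3 to 25.8) to 28 (26.3 to 32.1) CPM without overlap (log2 difference 0.36, SE 0.083, edgeR adjusted p 0.0312). Per1, which responds to glucocorticoid and to neuronal activity as well as to the clock, fell from 75.2 (68.5 to 98.7) to 61.4 (56.5 to 69.4) CPM with overlap (log2 difference -0.33, SE 0.083, edgeR adjusted p 0.0455). The highest ZT4 value of Per1 came from HepDKO ZT4 replicate 3. Without that library the difference was -0.25 (edgeR adjusted p 0.00371). The calls of Cry1 and Per1 were each kept in 4 of 12 fits with 1 library left out, with adjusted p of up to 0.085 and 0.124.

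The activator genes Clock and Arntl were not called, with log2 differences of 0.15 (SE 0.073) and -0.11 (SE 0.067). Clock levels were 109.7 (83.1 to 119.9) CPM at ZT4 and 118 (106 to 132) at ZT16, and Arntl levels 29.3 (25.1 to 30.3) and 26.7 (23.9 to 29.3). The second REV-ERB gene, Nr1d2, had 115, 132 and 122 CPM in Control pools and 141, 116 and 98.8 in HepDKO at ZT4 and 110.4, 107 and 131 (Control) and 121, 108 and 126 (HepDKO) at ZT16, a log2 difference of -0.042 (SE 0.079, edgeR adjusted p 0.806). Both Nr1d genes were thus present in the arcuate libraries of both genotypes, and their targeted exons were not looked at one by one, since the values are per gene. Per3 and Cry2 had log2 differences of 0.029 and -0.11, and the activator paralogs Npas2 and Arntl2 had 0.10 and -0.16. HepDKO ZT4 replicate 3 held the highest ZT4 level of Arntl2, and without it the difference of Arntl2 was -0.041. That of Npas2 ran from 0.028 to 0.14 with 1 library left out. Rora and Rorb, which encode receptors that oppose REV-ERB at its DNA sites, had 0.047 and 0.10. The kinase genes Csnk1d and Csnk1e and the ubiquitin ligase gene Fbxl21, whose products control the stability of PER and CRY, lay between -0.087 and 0.047.

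Of 15 clock output genes, 2 fell and 0 rose, against 1.15% and 1.43% of all genes tested, and 2 fell and 1 rose in the 11-library fit, against 2.87% and 3.88%. Dbp, a leucine zipper factor driven by CLOCK and BMAL1, went from 34.2 (25.1 to 43) to 23.9 (20.6 to 29.7) CPM (log2 difference -0.48, SE 0.1, edgeR adjusted p 0.0194). Ciart, a repressor of the same activators, went from 9.63 (8.34 to 12.5) to 7.38 (6.36 to 8.47) CPM (log2 difference -0.45, SE 0.11, edgeR adjusted p 0.0423). The time groups overlapped for both, and their calls were kept in 9 and 4 of 12 fits with 1 library left out. Dbp lost its call without Control ZT4 replicate 2, Control ZT16 replicate 2 or HepDKO ZT16 replicate 2 (adjusted p up to 0.0565), and Ciart also with the replicate number as a block and by limma-voom. Tef and Hlf, relatives of Dbp, had log2 differences of 0.10 and 0.0079, and exons of Dbp overlap those of Sphk2 on the opposite strand.

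The E-box CACGTG was looked for on both strands of the RefSeq promoter window of 300 bases, 250 before and 50 after the start. Of the 6 called clock genes, 5 have a window, and 3 of those (Ciart, Cry1 and Per1) hold a match. Among all 12451 tested genes with a window 11.1% hold one, among called higher genes 11.3% and among called lower genes 12.6%. The bases from 170 to 26 before the start of Ciart (chr3:95882254-95882398, minus strand) and Cry1 (chr10:85185080-85185224, minus strand), on GRCm38.p6, are shown because these 2 genes moved in opposite directions although both carry the motif. Capitals mark the E-box matches, 3 for Ciart between 44 and 116 bases before the start and 1 for Cry1 at 60 bases.
Ciart: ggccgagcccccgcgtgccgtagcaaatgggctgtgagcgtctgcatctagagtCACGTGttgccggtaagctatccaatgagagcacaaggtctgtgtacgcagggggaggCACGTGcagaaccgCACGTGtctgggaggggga
Cry1: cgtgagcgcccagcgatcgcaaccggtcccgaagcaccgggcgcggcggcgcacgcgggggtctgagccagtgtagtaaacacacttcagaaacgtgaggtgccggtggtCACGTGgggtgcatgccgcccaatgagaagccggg
A match is a description of the letters and does not show that a factor binds there, and no share was taken for clock genes that were not called.

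Glucocorticoid-responsive genes moved in both directions. Of 29 genes tested, 7 rose and 3 fell, against 1.43% and 1.15% of all genes tested, and 7 rose and 5 fell in the 11-library fit, against 3.88% and 2.87%. The median log2 difference was 0.16, against -0.0047 over all genes. Plin4, Glul and Fam107a, given above, are members. Fkbp5, a co-chaperone that restrains the glucocorticoid receptor and is a classic target of it, had 36.5, 38.3 and 34.1 CPM in Control pools and 36.5, 39.9 and 27.8 in HepDKO at ZT4, and 53.8, 58.1 and 65.8 (Control) and 42.6, 58.7 and 54.2 (HepDKO) at ZT16 (log2 difference 0.64, SE 0.093, edgeR adjusted p 0.00217). Every ZT16 library was above every ZT4 library. Sult1a1, a sulfotransferase gene, had 7.89 (6.42 to 13.1) CPM at ZT4 and 13.9 (12.8 to 16.6) at ZT16, Zbtb16, a zinc finger factor gene, 18.7 (15.2 to 24.5) and 31.8 (20.4 to 44.3), and Gjb6, the gene of the astrocyte gap junction protein connexin 30, 81.2 (66.1 to 89.5) and 99.8 (95.5 to 109). Their log2 rises were 0.77, 0.71 and 0.33 (edgeR adjusted p 0.012, 0.0462 and 0.0164).

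The 3 members that fell were Per1, given above, Ddit4 and Nfkbia. Ddit4, an inhibitor of mTOR signalling, went from 44.9 (37.4 to 62) to 36.9 (32.6 to 39) CPM (log2 difference -0.38, SE 0.085, edgeR adjusted p 0.0278). Nfkbia, the inhibitor of NF-κB, went from 20.7 (18.6 to 23.7) to 16.1 (14.2 to 20.1) CPM (log2 difference -0.35, SE 0.086, edgeR adjusted p 0.0416). The groups overlapped for both, and their calls were kept in 5 and 2 of 12 fits with 1 library left out. Nfkbia did not pass with all 24 libraries in the fit. Other well-known members did not pass: Sgk1, a kinase gene, had 55.3 (47.3 to 77.8) and 36.4 (29.7 to 69.8) CPM (log2 difference -0.55, edgeR adjusted p 0.158), and Tsc22d3, the gene of the leucine zipper protein GILZ, 87.2 (79.4 to 89) and 97 (86.5 to 132) CPM (log2 difference 0.22, edgeR adjusted p 0.157). The receptor gene Nr3c1 itself had a log2 difference of 0.13 (SE 0.09). With 1 library left out, 5 to 8 members rose and 0 to 5 fell. Over all genes in such fits, 94 of 16028 to 619 of 15967 rose and 69 to 458 fell.

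The 2 genotypes gave different medians for this list. In Control the median log2 difference of the 29 members was 0.36 and in HepDKO 0.010, and for 9 members the genotypes differed at an unadjusted p under 0.05, against 2.03% of all genes. All 9 were more negative in HepDKO, and none passed the adjusted threshold. Map3k6, a kinase gene, had 2.62, 2.3 and 2.34 CPM in Control pools and 3.32, 3.17 and 3.93 in HepDKO at ZT4 and 3.78, 4.26 and 3.38 (Control) and 2.03, 3.22 and 3.04 (HepDKO) at ZT16, with log2 differences of 0.66 and -0.33 (unadjusted p 0.00401 for the genotype difference). The Control libraries of this gene were higher at ZT16, while the HepDKO libraries were not. Arrdc2, an arrestin-like gene, had 11.6, 9.95 and 9.48 (Control) and 13.5, 12.2 and 17.9 (HepDKO) CPM at ZT4 and 11.3, 7.94 and 12.3 (Control) and 7.81, 7.18 and 9.12 (HepDKO) at ZT16 (log2 0.015 in Control and -0.85 in HepDKO, unadjusted p 0.00332). The other 7 were Plin4, Per1, Tsc22d3, Bcl6, Lcn2 and the metallothionein genes Mt1 and Mt2. With 1 library left out, 5 to 13 members had such a p, as did 267 of 16028 to 743 of 16035 genes tested. Without HepDKO ZT4 replicate 3 there were 8 such members, against 396 of all 15967 genes, and the list's median difference between genotypes was -0.26. Lcn2, an iron-binding protein gene of the acute phase, had 0.324, 3.5 and 0.398 CPM in the Control libraries at ZT16 and 0.596, 0.46 and 0.585 in the HepDKO ones, so that Control ZT16 replicate 2 stood far above the other 5.

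**Figure D3:**
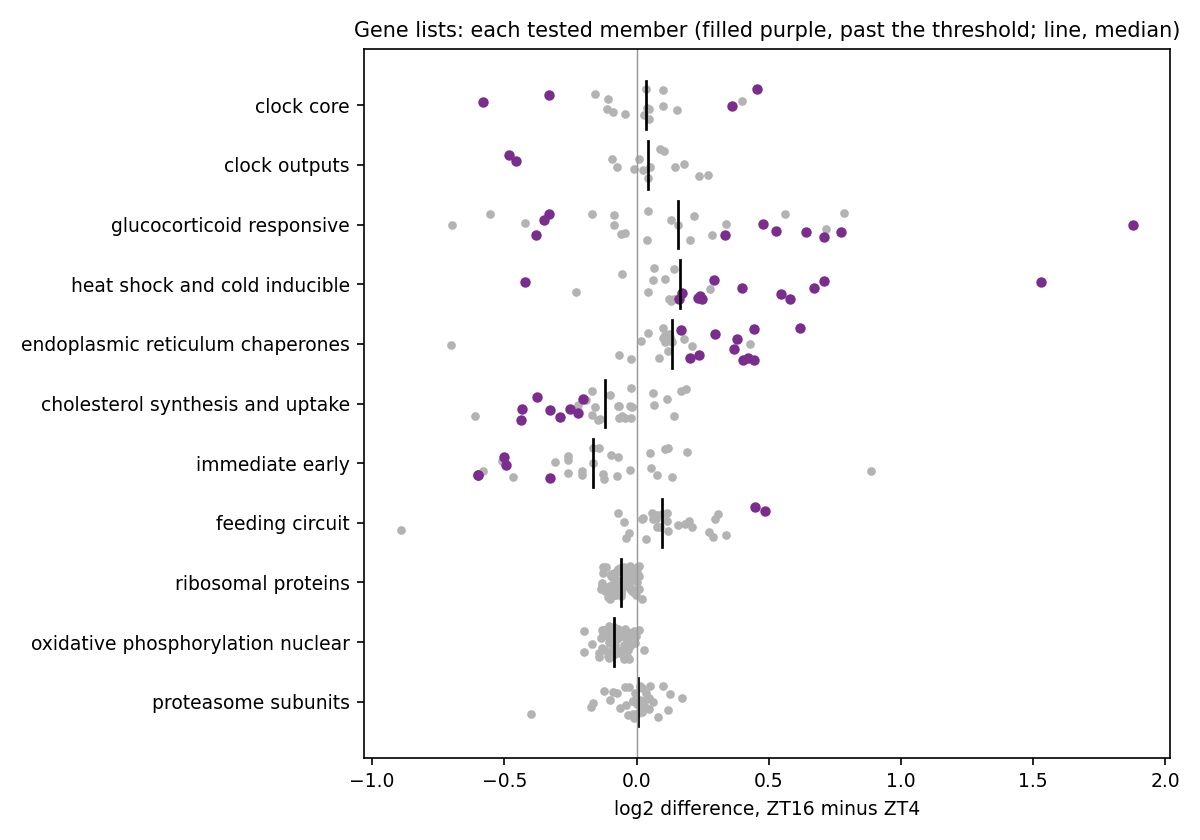
Each point is a tested member of the list named on the left, placed by its log2 difference between ZT16 and ZT4, with purple for members past the threshold and a black line at the list's median. Purple points of the heat shock and endoplasmic reticulum lists lie to the right of 0 except Cirbp, those of the cholesterol and immediate early lists lie to the left, and the ribosomal, oxidative phosphorylation and proteasome lists hold none.

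Many cytosolic heat shock genes rose. Of 24 genes on the heat shock and cold-inducible list, 12 rose and 1 fell, against 1.43% and 1.15% of all genes tested, with a median log2 difference of 0.17. Hspa1b, an inducible HSP70 gene (chr17:34956436-34959238, minus strand), had 4.74, 4.32 and 2.76 CPM in Control pools and 4.18, 5.08 and 3.82 in HepDKO at ZT4, and 9.71, 18.2 and 11.1 (Control) and 10.5, 16.7 and 6.14 (HepDKO) at ZT16. The ZT16 libraries were all higher but differed widely among themselves, and the fitted rise was 2.88-fold (log2 difference 1.53, SE 0.24, edgeR adjusted p 0.00512). Its near-identical neighbour Hspa1a had 8.57 (8.21 to 11.2) and 13.4 (11.2 to 18.4) CPM, and reads of the 2 may have been split between them in counting. Dnajb1, an HSP40 partner of HSP70, had 60.6, 63.4 and 59.99 CPM in Control pools and 56.6, 67.4 and 55.1 in HepDKO at ZT4, and 82, 98.3 and 85.5 (Control) and 85.5, 97.5 and 82 (HepDKO) at ZT16 (log2 difference 0.55, SE 0.064, edgeR adjusted p 0.000373). Control and HepDKO libraries overlapped at each time.

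Chordc1, which works with HSP90, went from 73.9 (63.5 to 81.9) to 109 (93.5 to 129) CPM (log2 difference 0.58, SE 0.073, edgeR adjusted p 0.000793), and the HSP40 gene Dnaja1 from 269 (256 to 287) to 319.6 (295 to 337) CPM (log2 difference 0.24, SE 0.04, edgeR adjusted p 0.0045), both without overlap. The small heat shock protein gene Hspb1 had 5.97 (5.35 to 6.13) and 8.84 (7.71 to 12.9) CPM, and Hsph1, an HSP110 exchange factor gene, 369.7 (294 to 387) and 455 (429 to 542). Smaller rises were called for the constitutive chaperone genes Hspa8 and Hspd1 (log2 0.17 and 0.16) and for the HSP90 partners Stip1, Ahsa1 and Fkbp4 (log2 0.29, 0.25 and 0.23). The HSP90 genes Hsp90aa1 and Hsp90ab1 had log2 differences of 0.14 and 0.11 that did not pass (edgeR adjusted p 0.152 and 0.12), and Hsf1, the gene of the factor that drives the response, had 0.045. Leaving out 1 library at a time left 7 to 15 members higher, in fits where 94 of 16028 to 619 of 15967 genes tested were higher. In the 11-library fit 15 rose and 2 fell, against 3.88% and 2.87% of all genes.

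The member that fell was Cirbp, an RNA-binding protein gene induced by mild cold. It had 110.4, 94.6 and 93.3 CPM in Control pools and 103, 92.1 and 141 in HepDKO at ZT4, and 81.4, 74.8 and 71.7 (Control) and 87, 77.3 and 80.01 (HepDKO) at ZT16 (log2 difference -0.42, SE 0.087, edgeR adjusted p 0.0194). The groups were separated, but HepDKO ZT4 replicate 3 was well above the other 5 ZT4 libraries. Without it the difference was -0.33 (edgeR adjusted p 0.000507), and the call was lost without Control ZT16 replicate 2, HepDKO ZT16 replicate 2 or HepDKO ZT16 replicate 3 (adjusted p up to 0.0576). The second cold-inducible gene on the list, Rbm3, had 41.6 (37.3 to 77.5) and 48.3 (35.7 to 54.1) CPM with a log2 difference of -0.053 (SE 0.17, edgeR adjusted p 0.896).

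The heat shock element core, GAANNTTC on either strand, was found in the promoter window of 8 of the 11 called heat shock genes that have one (72.7%). It was found in 6.99% of all tested genes with a window, 9.14% of the called higher and 3.5% of the called lower genes. A longer form, GAANNTTC followed after 2 bases by GAA, was in 3 of the 11 (Chordc1, Hspd1 and Hsph1) and in 0.546% of all tested genes. Heat shock genes that were not called had no share taken, so these matches cannot be tied to the change with time. The bases from 170 to 26 before the start are shown for Hspa1b (chr17:34959264-34959408, minus strand) and Hspb1 (chr5:135887749-135887893, plus strand), 2 called heat shock genes, with the core in capitals.
Hspa1b: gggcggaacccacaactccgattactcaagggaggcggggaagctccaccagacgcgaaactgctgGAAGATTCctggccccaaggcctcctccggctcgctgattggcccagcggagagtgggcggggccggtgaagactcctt
Hspb1: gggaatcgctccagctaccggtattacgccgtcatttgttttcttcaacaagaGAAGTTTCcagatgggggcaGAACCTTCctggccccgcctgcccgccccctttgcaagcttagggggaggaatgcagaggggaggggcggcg
The single core of Hspa1b starts 104 bases before the start of the gene, and the 2 of Hspb1 start 117 and 97 bases before it. Starts are those of RefSeq, which can differ from the GENCODE ones used for gene positions, and the stretches hold no GENCODE exon.

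Of 29 chaperone and folding genes of the endoplasmic reticulum tested, 11 rose and 0 fell, against 1.43% and 1.15% of all genes tested, with a median log2 difference of 0.13 and 26 members above 0. Hspa5 encodes BiP, the main HSP70 of this compartment (chr2:34771970-34777547, plus strand). It had 422, 443 and 432 CPM in Control pools and 395, 437 and 351 in HepDKO at ZT4, and 532, 604 and 559 (Control) and 542, 575 and 508 (HepDKO) at ZT16, all above the ZT4 values (log2 difference 0.42, SE 0.054, edgeR adjusted p 0.000793). Creld2, a secreted disulfide isomerase gene, went from 19.5 (18.6 to 21.9) to 26.7 (24.6 to 29.1) CPM, and Xbp1, which encodes a transcription factor of the unfolded protein response, from 89.7 (83.3 to 93.2) to 116 (103 to 127) CPM, both without overlap. Their log2 differences were 0.44 and 0.37 (edgeR adjusted p 0.00149 and 0.00144).

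The disulfide isomerase genes Pdia6 and Pdia4 rose from 141 (134 to 149) to 171 (162 to 185) CPM and from 50.9 (42.2 to 53.6) to 68.5 (57.3 to 74.9) CPM. Sdf2l1, a BiP partner gene, had the largest rise on the list, from 11 (8.16 to 13.3) to 16.2 (15.3 to 20.6) CPM (log2 difference 0.62, SE 0.11, edgeR adjusted p 0.00542). Manf, a secreted neurotrophic factor retained in the endoplasmic reticulum, rose by a log2 difference of 0.38. The other 4 called members were Dnajc3, Dnajb11, Hyou1 and Calr, with log2 differences of 0.40, 0.24, 0.20 and 0.17. With 1 library left out, 7 to 13 members rose, in fits where 94 of 16028 to 619 of 15967 genes tested rose. In the 11-library fit 13 rose and 0 fell, against 3.88% and 2.87% of all genes.

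The endoplasmic reticulum stress element is a pair of half-sites, CCAAT and CCACG, 9 bases apart. It was looked for on both strands after the list had been seen to rise. It was found in 5 of the 9 called members with a promoter window (Calr, Creld2, Dnajc3, Hspa5 and Pdia6) and in 21 of all 12451 tested genes with one (0.169%). These 5 were also the only called higher genes that held it, 5 of 186, and 0 of 143 called lower genes did. No share was taken for chaperone genes of the list that were not called, so the match cannot be tied to the change with time. The bases from 170 to 26 before the start are shown for the co-chaperone gene Dnajc3 (chr14:118937762-118937906, plus strand) and Creld2 (chr15:88819476-88819620, plus strand), with the half-sites in capitals.
Dnajc3: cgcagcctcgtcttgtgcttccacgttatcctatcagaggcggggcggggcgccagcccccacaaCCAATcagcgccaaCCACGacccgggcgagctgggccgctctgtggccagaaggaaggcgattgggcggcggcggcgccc
Creld2: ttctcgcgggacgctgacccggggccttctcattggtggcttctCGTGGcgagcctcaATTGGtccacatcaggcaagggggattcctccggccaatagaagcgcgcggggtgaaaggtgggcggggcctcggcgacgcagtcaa
The element of Dnajc3 is on the strand shown, starting 105 bases before the start of the gene, and that of Creld2 is on the other strand and starts 126 bases before it.

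Of 32 genes of cholesterol synthesis and uptake tested, 8 fell and 0 rose, against 1.15% and 1.43% of all genes tested, with a median log2 difference of -0.12. Insig1, whose product holds the SREBP transcription factors in the endoplasmic reticulum when sterols are plentiful and which is itself an SREBP target (chr5:28071363-28078662, plus strand), had 115, 107 and 111 CPM in Control pools and 119, 109 and 119 in HepDKO at ZT4, and 81.7, 81.3 and 90.4 (Control) and 87.7, 77.5 and 84.7 (HepDKO) at ZT16 (log2 difference -0.43, SE 0.049, edgeR adjusted p 0.000338). All ZT16 libraries were lower. Dhcr7, the enzyme gene of the last step, went from 50.6 (46.7 to 52.2) to 40.7 (38.7 to 43.6) CPM (log2 difference -0.29, SE 0.05, edgeR adjusted p 0.00542) and Hsd17b7, an enzyme gene of sterol demethylation, from 20.6 (18 to 22.6) to 14.7 (13.5 to 18.6) CPM (log2 difference -0.44, SE 0.084, edgeR adjusted p 0.0125). The groups were separated for Dhcr7 and overlapped for Hsd17b7.

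Nsdhl, another enzyme gene of sterol demethylation, fell from 30.4 (26.9 to 35.4) to 24.4 (23 to 25.7) CPM, by a log2 difference of -0.18 in Control and -0.47 in HepDKO (unadjusted p 0.0197 for the genotype difference). Its call over both genotypes was lost without HepDKO ZT16 replicate 3 (edgeR adjusted p 0.0523). Mvd, Lss and Hmgcs1, enzyme genes from the start and middle of the pathway, had log2 differences of -0.38, -0.22 and -0.20. The regulator genes Srebf2 and Scap had -0.017 and -0.022. With 1 library left out, 4 to 11 members fell, in fits where 69 of 16028 to 458 of 15967 genes tested fell. In the 11-library fit 11 fell and 0 rose, against 2.87% and 3.88% of all genes. The sterol regulatory element core TCACNCCA, on either strand, was in the window of 1 of 7 called members (Hmgcs1) and of 4.56% of all tested genes. None of 25 lipogenesis genes tested was called with 12 libraries, where 2.58% of all genes were, and 2 of 26 fell with 11, where 2.87% did.

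Immediate early genes are switched on within minutes of neuronal activity. Of 31 tested 5 fell and 0 rose, against 1.15% and 1.43% of all genes tested, and 5 fell and 0 rose in the 11-library fit, against 2.87% and 3.88%. Fos was not among those 5 (edgeR adjusted p 0.0613) and Egr3 was (0.0358). The median log2 difference was -0.16, with 23 members below 0, and -0.10 in the 11-library fit, also with 23 below 0. Egr1, a zinc finger factor gene, had 64.5, 73.6 and 50.3 CPM in Control pools and 57, 59.6 and 50.8 in HepDKO at ZT4, and 40.1, 43.3 and 45.1 (Control) and 37.8, 34.6 and 34.9 (HepDKO) at ZT16, with no overlap (log2 difference -0.60, SE 0.078, edgeR adjusted p 0.000874). Nr4a3, an orphan nuclear receptor gene, fell from 14.3 (12.1 to 15) to 9.94 (8.62 to 10.9) CPM without overlap (log2 difference -0.49, SE 0.077, edgeR adjusted p 0.00286). Fos, the most used marker of activated neurons, went from 26.7 (19.8 to 31.8) to 19.7 (14.5 to 22.7) CPM (log2 difference -0.50, SE 0.12, edgeR adjusted p 0.0362), and Arc, a synaptic capsid-like protein gene, from 15.3 (13.1 to 17.5) to 12.4 (11 to 13.3) CPM (log2 difference -0.33, SE 0.08, edgeR adjusted p 0.0388), both with overlap. Egr4 had a log2 difference of -0.60. The calls of Egr1 and Nr4a3 were kept in all 12 fits with 1 library left out and those of Fos and Arc in 4 and 3. In the fit of all 24 arcuate libraries Fos and Arc did not pass, nor did Arc with the replicate block.

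The 4 feeding peptide genes did not pass the test. Agrp had 15.8, 14.5 and 13.2 CPM in Control pools and 12.4, 13.6 and 21.9 in HepDKO at ZT4, and 18.9, 19.4 and 19 (Control) and 18.9, 22.5 and 13.4 (HepDKO) at ZT16 (log2 difference 0.30, SE 0.14, edgeR adjusted p 0.273). HepDKO ZT4 replicate 3 held the highest ZT4 value of Agrp, and without it the difference was 0.44 (edgeR adjusted p 0.0105). Exons of Agrp overlap exons of Ctcf on the opposite strand. Npy had 38.7, 40.8 and 35.8 (Control) and 37.7, 34.2 and 60.8 (HepDKO) CPM at ZT4 and 41.1, 54.7 and 37.6 (Control) and 38.3, 51.5 and 34.3 (HepDKO) at ZT16 (log2 difference 0.057, SE 0.16, edgeR adjusted p 0.871), and 0.21 without that library. Both are neuropeptide genes of the neurons that promote feeding, and their time groups overlapped.

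Pomc, the precursor of the appetite-lowering peptide α-MSH, had 65.1, 94.6 and 48.5 (Control) and 65, 61.7 and 110.2 (HepDKO) CPM at ZT4 and 108, 59.9 and 75.4 (Control) and 63.2, 73.5 and 73.1 (HepDKO) at ZT16. Its log2 difference was 0.024 with an SE of 0.21 (edgeR adjusted p 0.964). The time groups overlapped widely. Cartpt had 104 (94.8 to 125) CPM at ZT4 and 111 (105 to 121) at ZT16 (log2 difference 0.089, SE 0.059). HepDKO ZT4 replicate 3 held its highest ZT4 value, and without that library the difference was 0.14 (edgeR adjusted p 0.0592). Of all 29 feeding circuit genes tested, 2 rose and 0 fell, against 1.43% and 1.15% of all genes, and 4 rose and 0 fell in the 11-library fit, against 3.88% and 2.87%. Cckar, a receptor gene of the satiety hormone cholecystokinin, went from 6.42 (5.6 to 8.31) to 9.24 (7.15 to 10.3) CPM, and Socs3, an inhibitor of leptin signalling that leptin induces, from 3.76 (3.28 to 4.57) to 5.33 (4.24 to 6.38) CPM. Their log2 differences of 0.45 and 0.49 (edgeR adjusted p 0.0419 and 0.0429) were near the threshold, and the calls were kept in 4 and 3 of 12 fits with 1 library left out. Cckar did not pass with the replicate block or without a genotype term, nor Socs3 with no filter on low counts. The receptor genes Lepr, Insr and Ghsr, for leptin, insulin and ghrelin, had log2 differences of 0.31, 0.037 and 0.16 and did not pass. Without HepDKO ZT4 replicate 3 the difference of Ghsr was 0.031.

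Among 23 neuroendocrine genes tested 1 rose and 1 fell, against 1.43% and 1.15% of all genes, and the 11-library fit had 1 of each among 24, against 3.88% and 2.87%. Tacr3, the neurokinin B receptor gene, went from 15.8 (13.1 to 19.3) to 20.3 (18.6 to 20.7) CPM (log2 difference 0.32, SE 0.076, edgeR adjusted p 0.0356), with its call kept in 4 of 12 fits with 1 library left out and lost without a genotype term. Adcyap1, the gene of the peptide PACAP that is abundant in the ventromedial nucleus, went from 133 (117 to 164) to 106 (91.3 to 115) CPM (log2 difference -0.40, SE 0.077, edgeR adjusted p 0.0127), a separated fall kept in all 12. It is 1 of 3 markers of the ventromedial nucleus, and the other 2, Nr5a1 and Fezf1, had log2 differences of 0.24 and 0.054 with SEs of 0.29 and 0.29. None of the 20 tanycyte and thyroid hormone genes was called in the fit of 12 libraries, where 2.58% of all genes were. Dio2, the gene of the enzyme that makes active thyroid hormone in tanycytes, had 17.2 (15.5 to 18.1) CPM at ZT4 and 19.7 (14.9 to 23.2) at ZT16 (log2 difference 0.18, edgeR adjusted p 0.292). In the 11-library fit 1 gene of that list rose and 2 fell, against 3.88% and 2.87% of all genes.

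Large housekeeping complexes were counted in the same way. Of 75 ribosomal protein genes, 77 nuclear genes of oxidative phosphorylation and 37 proteasome subunit genes tested, 0 passed in either direction, against 2.58% of all genes, and 3, 6 and 3 of them had an unadjusted p under 0.05 against 19.1% of all genes. Without HepDKO ZT4 replicate 3 the counts past the threshold were 0, 2 and 1, against 6.75%. The median log2 difference of the ribosomal protein genes was -0.060 over both genotypes, 0.014 in Control and -0.12 in HepDKO. That of the oxidative phosphorylation genes was -0.084, with -0.0041 in Control and -0.14 in HepDKO. Differences were negative for 67 of the 75 and 75 of the 77, against 8133 of all 15847 genes, and 1 and 6 of them differed between genotypes at an unadjusted p under 0.05. Leaving out HepDKO ZT4 replicate 3 gave medians of -0.011 and -0.024, with 44 and 60 members negative. Of 15 collagen and matrix genes 0 were called (3 were lower at an unadjusted p under 0.05), and 1 fell in the 11-library fit.

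Of 102 voltage-gated and potassium channel genes, 2 rose and 1 fell (2.94%), a share near the 2.58% of all genes tested. In the 11-library fit 6 rose and 2 fell (7.84%), against 6.75% of all genes. Kcnip3, a channel-binding calcium sensor, went from 64.6 (59.4 to 70.5) to 51.2 (47.4 to 55.1) CPM (log2 difference -0.33, SE 0.053, edgeR adjusted p 0.00357), the inward rectifier gene Kcnj5 from 16.3 (13.5 to 17.1) to 19.8 (18.5 to 20.3) and the fast-spiking channel gene Kcnc2 from 79.8 (57.6 to 86.9) to 97 (87.5 to 98.2). The calls of Kcnj5 and Kcnc2 were kept in 5 and 3 of 12 fits with 1 library left out, and Kcnc2 did not pass with RLE factors, with no filter or with the replicate block. Of 41 glutamate and GABA receptor genes, Gabra6 alone passed (2.44%), near that share as well. In the 11-library fit 2 rose and 3 fell (12.2%, against 6.75%). Gabra6 is a GABA receptor subunit known from cerebellar granule cells and was near the detection limit here, at 0.167, 0 and 0.30 CPM in Control pools and 0.101, 0.151 and 0.105 in HepDKO at ZT4 and 0.432, 0.818 and 1.33 (Control) and 0.715, 0.689 and 0.409 (HepDKO) at ZT16 (edgeR adjusted p 0.0139). Of 26 chromatin and splicing genes the splicing factors Tra2a and Tra2b rose, from 79.6 (72.6 to 107) to 109 (99.3 to 119) and from 69.5 (66.8 to 75) to 82.3 (73.8 to 86.5) CPM. The call of Tra2b was kept in 4 of 12 fits with 1 library left out, with an adjusted p of up to 0.0984. The 12-library count for this last list was 2 higher and 0 lower, against 1.43% and 1.15% of all genes, and the 11-library count was 10 and 1, against 3.88% and 2.87%.

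Of 32 interferon-stimulated genes 1 rose and 1 fell, against 1.43% and 1.15% of all genes tested. In the 11-library fit 3 rose and 3 fell, against 3.88% and 2.87%. Ifit3 went from 12.1 (10.6 to 13.5) to 18.2 (14.3 to 23.2) CPM (log2 difference 0.61, SE 0.10, edgeR adjusted p 0.00519), with a near-identical copy, Ifit3b, that counting could confuse with it. Tap1, which feeds peptides to MHC class I molecules, went from 6.24 (5.36 to 6.8) to 4.15 (3.58 to 4.71) CPM (log2 difference -0.57, SE 0.10, edgeR adjusted p 0.00764), and its exons overlap those of Psmb9 on the opposite strand. Both genes were separated between the times.

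Cell type markers were counted last. Of 10 arcuate neuron, 10 general neuron, 7 tanycyte, 6 astrocyte, 7 microglia, 6 endothelial, 6 pericyte and smooth muscle and 6 meningeal fibroblast markers tested, 0 were called, where 2.58% of all genes were. In the 11-library fit, where 6.75% of all genes were called, 3 general neuron markers, 1 arcuate neuron marker and 1 endothelial marker were higher and 1 astrocyte marker was lower. The 7 other general neuron markers were below 0 there, and the median log2 difference of the 10 was -0.043. Of 6 oligodendrocyte markers, Cnp and Mag, genes of myelin enzymes and adhesion proteins, fell. All 6 had negative differences, with a median log2 difference of -0.28. Cnp went from 345 (318 to 394) to 281 (223 to 328) CPM (log2 difference -0.34, SE 0.073, edgeR adjusted p 0.025) and Mag from 143 (129 to 159.7) to 117 (85.4 to 130.4) CPM (log2 difference -0.34, SE 0.082, edgeR adjusted p 0.0363), both with overlap. The summed level of the 6 markers ran from 4193 to 5384 CPM (median 4520) at ZT4 and from 2865 to 4718 (median 3975) at ZT16, so the ranges overlapped. Without HepDKO ZT4 replicate 3, which held the highest sum, 0 of the 6 were called, with log2 differences of -0.30 for Cnp and -0.33 for Mag (edgeR adjusted p 0.0765 and 0.09999). All 6 were still negative there, with a median of -0.24. With any single library left out 0 to 3 were called, in fits where 163 of 16028 to 1077 of 15967 genes tested were. Opalin, described above, is also expressed in oligodendrocytes, and the part of myelin content in its fall was not tested. Foxj1, the master factor of ciliated ependymal cells, rose from 26.9 (22.6 to 27.1) to 34.2 (29.4 to 37.7) CPM (log2 difference 0.37, SE 0.064, edgeR adjusted p 0.00519), and the other 4 ependymal markers did not pass. Pmch, the melanin-concentrating hormone gene of the lateral hypothalamus, rose from 97.1 (88.7 to 119) to 129.7 (116 to 159.5) CPM (log2 difference 0.42, SE 0.093, edgeR adjusted p 0.0269). Its call was kept in 5 of 12 fits with 1 library left out and was lost without HepDKO ZT4 replicate 3, where the log2 difference was 0.42 (edgeR adjusted p 0.0808). Of the 7 markers of other hypothalamic nuclei, 6 had positive differences, with a median log2 difference of 0.42, and Pmch alone was called. Hcrt, Vip, Avp and Oxt had 0.65, 1.44, 0.26 and 0.43, with SEs of 0.22, 0.74, 0.77 and 0.61, and the part of the punch's position in these levels was not tested.

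The 2 genotypes were then compared. They share no library, so the time difference in one is a repeat of that in the other with the same covariates. Fitted as 4 groups with a common spread, 26 genes were called in Control (0.164%; 18 higher, 0.114%, and 8 lower, 0.0505%) and 14 in HepDKO (0.0883%; 8 higher, 0.0505%, and 6 lower, 0.0379%). All 26 Control genes moved the same way in HepDKO, each with an unadjusted p under 0.05 there. Over all genes, 65.4% moved the same way and 12.3% did so with such a p. All 14 HepDKO genes moved the same way in Control, 13 of them with such a p, against 7.38% of all genes. The 10 genes called in both were Plin4, Mfsd2a, Glul, Plce1, Zbtb40, Per2, Dnajb1, S100a16, Insig1 and Fabp7. With only its own 6 libraries in the fit, Control had 94 called genes, of which 92 moved the same way in HepDKO and 76 with an unadjusted p under 0.05. Over the 15293 genes tested in both of these fits, 65.7% moved the same way and 8.55% did so with such a p in HepDKO. In its own fit HepDKO had 0 called and 1476 genes at an unadjusted p under 0.05. Without HepDKO ZT4 replicate 3 in the 4-group fit, 210 genes were called in Control and 86 in HepDKO.

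**Figure D4:**
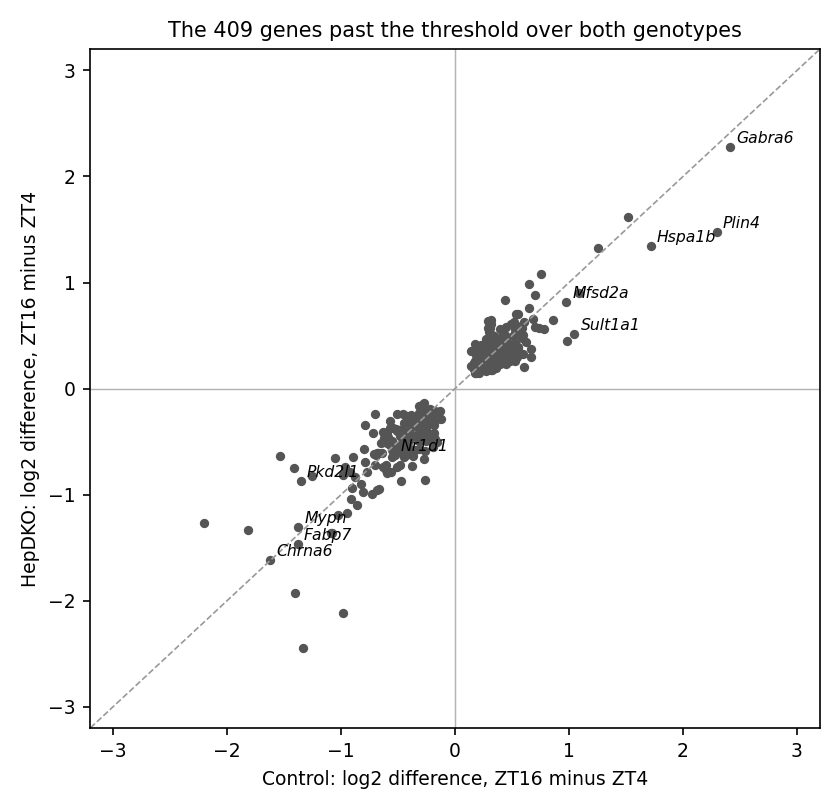
The log2 difference between ZT16 and ZT4 in Control (horizontal) and in HepDKO (vertical) for the 409 genes called over both genotypes; the dashed line marks equal differences. All points lie at the lower left or the upper right, since 0 of the 409 had opposite signs, and Plin4 lies below the line on the side of a smaller rise in HepDKO.

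No gene was called for a difference between genotypes in the time effect by edgeR, DESeq2 or limma-voom, and 322 genes (2.03%) had an unadjusted p under 0.05 in edgeR. Of the 409 genes called over both genotypes, 8 (1.96%) had such a p, 0 had opposite signs, and 376 had an unadjusted p under 0.05 in each genotype. Of all 15847 genes, 5488 had opposite signs, and 528 moved the same way with an unadjusted p under 0.05 in each genotype. The rule of calling over both genotypes favours genes that move alike, so the sign count and the count of 376 are descriptions. The 8 were Plin4, Per1, Nsdhl, Mvd, H1f2, Dlx1, Elovl7 and Lgr6. Plin4 had the lowest p of all genes: its log2 rise was 2.30 in Control and 1.48 in HepDKO, a difference of -0.82 (SE 0.21, unadjusted p 0.00144, adjusted 0.993). Mfsd2a, for comparison, rose by 0.97 and 0.82 (unadjusted p 0.284 for the difference), and Nr1d1 differed by -0.53 and -0.63 (unadjusted p 0.494). Across all 15847 genes the log2 differences of the 2 genotypes had a Pearson r of 0.387 and a Spearman rho of 0.416, and across the 10620 genes with a mean of at least 10 CPM the Pearson r was 0.564. These are descriptions across genes, which share libraries and are not independent.

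The threshold has limits at this sample size. In simulated data with these means and library sizes, the test over both genotypes recovered 71% of 1.5-fold and 89% of 2-fold changes. For the difference between genotypes it recovered 34% and 80%, so in simulation most genotype differences of 1.5-fold were missed. The simulated libraries varied independently and none stood apart from the others, so recovery in the real libraries may differ.

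The 2 other arcuate times of the series, ZT10 and ZT22, show where ZT4 and ZT16 lie on the day, as levels without a test (mean of 6 libraries, scaled over all 24). Nr1d1 had means of 58.5, 57, 39 and 38.5 CPM at ZT4, ZT10, ZT16 and ZT22, so its level was high at the 2 light-phase times. Per2 had 32.6, 42.8, 44.7 and 32 CPM, with ZT10 close to ZT16. Dbp was at 34.4, 46.9, 24.6 and 21 CPM, so that its highest mean lay at a time this comparison does not include. Dnajb1 had 60.6, 57.8, 88.6 and 60.4 CPM and Hspa1b 4.16, 4.03, 12.1 and 4.24. Both heat shock genes stood higher at ZT16 than at the 3 other times. Insig1 had 114, 104, 84 and 107 CPM, lowest at ZT16. Plin4 ran from 4.5 to 7.78 CPM at ZT4 and from 16.4 to 28.3 at ZT16, but from 7.5 to 29.4 at ZT10 and from 5.4 to 62.6 at ZT22, so that its libraries were much less alike at the times not compared.

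**Figure D5:**
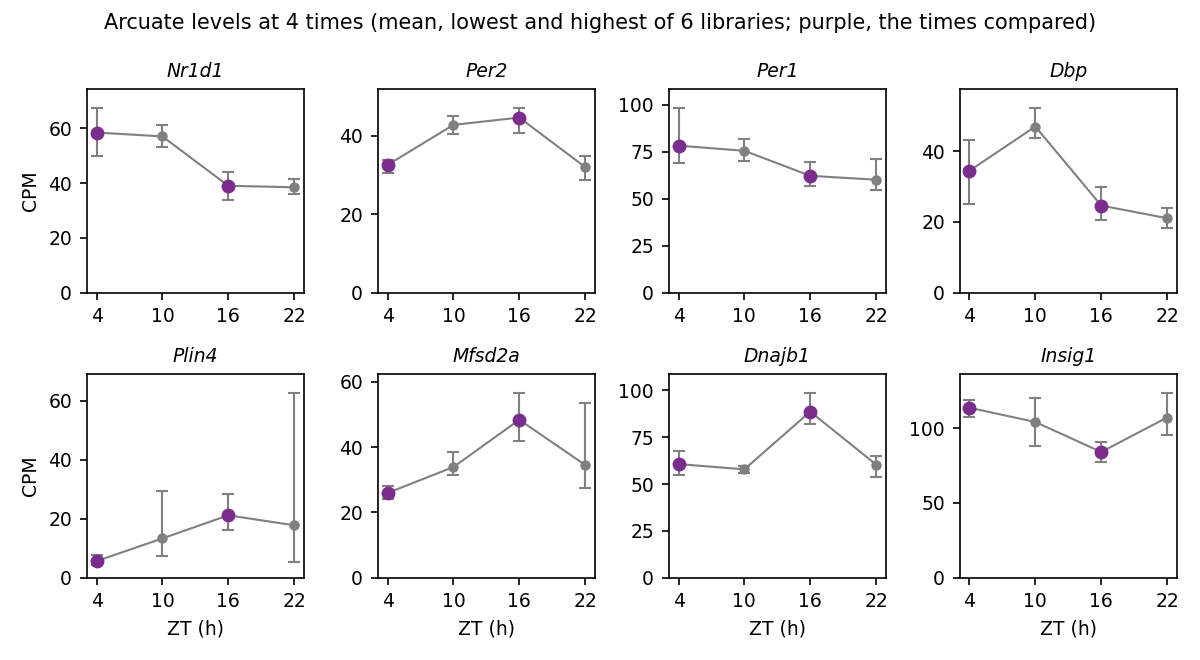
Mean CPM of 8 genes over the 6 arcuate libraries at each of ZT4, ZT10, ZT16 and ZT22 (hours), with bars from the lowest to the highest library and purple for the 2 times compared. Dnajb1 stands out at ZT16 alone with a mean of 88.6 CPM, and the bars of Plin4 are widest at ZT22, from 5.4 to 62.6 CPM.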

How the data were processed

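RNA of 12 arcuate libraries was compared. The authors deposited raw read counts for 25229 gene symbols in 48 libraries (0 columns without a sample). The submitters' processing notes name FastQC 0.11.7, Trim Galore 0.6.10, STAR 2.7.10b and the build mm10; the counting tool, its strand setting and the annotation are not given in the sources used here, and the symbols of mitochondrially encoded genes are not analysed here. The labels say that a company prepared the libraries.

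From the counts, genes were filtered with edgeR 4.0.16 (filterByExpr, minimum count 10) on the 4 groups, leaving 15847, scaled by TMM and fitted with the robust quasi-likelihood model in R 4.3.3, with genotype and time as terms for the main comparison and 1 mean per group for each genotype and their difference. Adjusted p are Benjamini-Hochberg values over all genes tested, with a threshold of 0.05, two-sided. Log2 differences are ZT16 minus ZT4. Depth was 15505869 to 20399718 counts per library. No 2 libraries of a group agreed within sampling noise (lowest chi-square per degree of freedom 2.89), and nothing says that pools came from separate cohorts, so p-values measure the spread between pools.

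The comparison and the gene lists were chosen with earlier results of these data known; within it, the libraries were taken by their labelled tissue and time alone. Genes named are the tested clock core genes, the 12 lowest p in each direction and the 5 largest differences in each direction. The last were taken among called genes at a mean of at least 1 CPM. Also named are up to 4 called members per list, the 4 feeding peptides, and up to 3 genes for each other test. Other list members and the genes in the closing section were named after their values were seen. Some genes that these rules name are not reported here. Lists are described by counts and medians, with no set test. Gene positions are from GENCODE vM21 on GRCm38 and promoters from RefSeq on GRCm38.p6; 69 of the 83 genes named by these rules have a promoter window. The stress element, the 3-unit heat shock form and the sterol element were searched for after seeing the data. Alternatives were DESeq2 1.42.0, limma-voom (limma 3.58.1), RLE factors, no filter, at least 1 CPM in at least 3 libraries, a replicate block, all 24 arcuate libraries, no genotype term, only 6 libraries of a genotype, leaving out each library in turn and, chosen after seeing the data, leaving out Rn45s, Lars2 and Mir6236. On simulated data the main test recovered 71% of 1.5-fold and 89% of 2-fold changes among 15712 genes, with 5 false calls of 165. For Control alone it recovered 56% and 83% (15716 genes), for HepDKO 55% and 83% (15722 genes) and for the genotype difference 34% and 80% (15720 genes).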

Additional observations from a re-analysis of the deposited data

Results flagged for a closer look

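Of 202 sets of 6 libraries (1 time, both genotypes) that were screened for a library far from the others, 16 (7.92%) held one, where chance alone would give about 1 in 20. HepDKO ZT4 replicate 3 was the distant library in 12 of them. In the whole-library measures it had 0.948% of its counts in Meg3, a summed oligodendrocyte marker level of 5384 CPM and a summed astrocyte marker level of 1967 CPM. For single genes it had 21.9 CPM of Agrp, 60.8 of Npy, 98.7 of Per1, 7.80 of Plin4 and 107 of Tra2a, all above the 5 other ZT4 libraries. It had 83.1 CPM of Clock, 169.9 of Csnk1d, 12.1 of Nr4a3 and 83.3 of Xbp1, all below them. Without this library the log2 difference between ZT16 and ZT4 was 2.02 for Plin4 (1.88 with it), 0.50 for Tra2a (0.40), 0.087 for Clock (0.15), 0.019 for Csnk1d (0.047), -0.53 for Nr4a3 (-0.49) and 0.35 for Xbp1 (0.37), and those of Agrp, Npy and Per1 are given above. All 6 stayed on the same side of the threshold (edgeR adjusted p 0.292 for Clock and 0.795 for Csnk1d, and at most 0.000142 for the other 4).

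The 4 others came from other libraries. Control ZT4 replicate 3 had 21.9 CPM of Creld2, above the 5 other ZT4 libraries. Control ZT16 replicate 1 had a summed ventromedial marker level of 201 CPM and 108 CPM of Pomc, both above the other ZT16 libraries. HepDKO ZT16 replicate 3 had 18.6 CPM of Tacr3, below the other ZT16 libraries.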

How the results depend on the processing

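The count of genes changed over both genotypes was 409 (227 higher, 182 lower). DESeq2 gave 808 (435 and 373) and the fit of all 24 arcuate libraries 802 (446 and 356), and 403 and 381 of the 409 were among them. The 6 other settings and the 1 added after seeing the data (without Rn45s, Lars2 and Mir6236, 399) gave 362 to 466. Leaving out 1 library gave 163 to 1077 (94 to 619 higher, 69 to 458 lower).

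In Control the count of 26 became 110 with DESeq2, 64 with all 24 libraries, 5 with limma-voom, 94 with only the 6 Control libraries and 3 to 210 with 1 library left out. In HepDKO the count of 14 became 141 with DESeq2, 106 with all 24 libraries, 37 with no filter on low counts, 0 with only the 6 HepDKO libraries and 2 to 86 with 1 library left out. The genotype difference had 0 genes under all settings. The cause of these changes was not tested.

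Deviations of same-numbered libraries at the 2 times from their group means had correlations of -0.0135 to 0.124. Differently numbered libraries were not compared in this way, so these values cannot decide whether replicate numbers pair the samples. With the replicate block, 466 genes changed over both genotypes, 27 in Control, 32 in HepDKO and 0 for the genotype difference.

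For single named genes, 783 of 807 values under other settings stayed on the same side of the threshold with the same sign, 24 fell short of it and 0 reversed. With 1 library left out, 900 of 1080 stayed so, 165 fell short, 3 newly passed and 12 changed sign. The 12 belong to genes that were not called: Pomc (log2 difference -0.11 to 0.19), Npy (-0.037 to 0.21), Per3 (-0.027 to 0.086), Nr1d2 (-0.10 to 0.014) and Rora (-0.11 to 0.17). Depth limits genes near 1 CPM, such as Gabra6, whose fold depends on few counts. With only its 6 libraries in the fit HepDKO lost Mfsd2a, Plin4 and Plce1, and with all 24 libraries Plin4 was lost in each genotype while kept over both.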

Other observations

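Genes outside the lists also moved between the times; they were picked after their values were seen. Some code for enzymes and chaperones that shape collagen. P4ha1 and P4ha2, subunits of the prolyl hydroxylase of collagen, went from 52.7 (44.8 to 57) to 71 (66.9 to 89.4) CPM (median, with the lowest and highest of 6 libraries) and from 23.4 (20.8 to 26) to 29.5 (26.3 to 36.5) CPM (edgeR adjusted p 0.00156 and 0.0143). Serpinh1, the collagen chaperone HSP47, went from 28.4 (26.2 to 31.6) to 38.9 (35.8 to 50.5) CPM (log2 difference 0.54, SE 0.085, edgeR adjusted p 0.00341). Vgf, a neuropeptide precursor gene of the hypothalamus, went from 261 (227 to 286) to 346 (310.0 to 392) CPM (log2 difference 0.42, SE 0.064, edgeR adjusted p 0.00283). Sox2 and Sox9, transcription factor genes of glia, rose by log2 differences of 0.38 and 0.32, and the amine receptor genes Htr1b, Htr4 and Hrh1 by 0.43, 0.42 and 0.38.

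A second set, also picked by its values and with no list behind it, holds genes known from striated muscle. They need not be particular to muscle, and only genes that fell were picked, so muscle genes that did not fall are not shown. Myh8, a myosin heavy chain gene, had 0.669, 0.601 and 1.44 CPM in Control pools and 2.32, 1.36 and 2.83 in HepDKO at ZT4 and 0.378, 0.35 and 0.265 (Control) and 0.477, 0.632 and 0.585 (HepDKO) at ZT16 (log2 difference -1.72, SE 0.30, edgeR adjusted p 0.00545). Smyd1, a muscle methyltransferase gene, went from 8.78 (4.81 to 13.9) to 4.46 (2.86 to 6.67) CPM and Mb, the myoglobin gene, from 1.72 (1.06 to 2.79) to 0.753 (0.647 to 0.994) CPM (edgeR adjusted p 0.0213 and 0.0299). Myh13, Actn2, Ky, Asb2 and Pvalb had log2 differences of -1.66, -0.54, -0.53, -0.82 and -0.98, with adjusted p of 0.0225 to 0.0483. HepDKO ZT4 replicate 3 held the highest ZT4 level of Myh8, Smyd1, Actn2, Asb2 and Pvalb. Without it the log2 differences of these 5 were -1.57, -0.79, -0.40, -0.67 and -0.86 (edgeR adjusted p 0.00333, 0.0157, 0.0227, 0.0171 and 0.095), so that Pvalb no longer passed. The source of these transcripts in the arcuate punches was not tested.

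Pllp and Trf, which oligodendrocytes express, were picked in the same way. Pllp, a myelin proteolipid gene, went from 46.8 (42.4 to 58.1) to 28.3 (22.1 to 37.2) CPM (log2 difference -0.68, SE 0.11, edgeR adjusted p 0.00443), and Trf, the transferrin gene, from 233 (203 to 250.3) to 170.2 (109.8 to 196) CPM (log2 difference -0.46, SE 0.11, edgeR adjusted p 0.0404). The highest ZT4 level of Pllp was in HepDKO ZT4 replicate 3, and without that library the log2 differences of Pllp and Trf were -0.62 and -0.46 (edgeR adjusted p 0.0127 and 0.101), and that of Trf no longer passed.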
